A study of Mus musculus with 60 samples.

Results

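Rps26 and 6 further genes, Rps26-ps1, Gm6563, Rpl14-ps1, Tpm3-rs7, Gm6166 and Gm14296, were followed across 60 RNA-seq libraries of mouse hippocampus. They are 7 of the 47643 gene symbols of the deposited table and were chosen by their TPM values over these libraries (TPM is an abundance scaled by gene length and by library total), which leave a wide gap between low and high libraries. Female mice of 2 months had been injected with cachectic melanoma cells (CAC), with non-cachectic melanoma cells (NCAC) or with a mock injection (Con), and tissue was taken at 2, 4, 6 and 8 wk. There were 4, 5, 5 and 7 CAC libraries at these times, 5, 5, 4 and 5 NCAC libraries, and 5 Con libraries at each time. The labels disagree on the strain that all groups share: sample labels give C57BL6/J, and the design text of the series gives NCI Ath/nude. The extract protocol also refers to 3 weeks after injection of a further tumour line, LLC, which fits none of the groups. No other allele or agent is named, and the labels do not say whether each library is 1 mouse.

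Most of the 7 are copies of another gene. A processed pseudogene or retrocopy arises when the spliced messenger RNA of a gene is copied into DNA and inserted elsewhere in the genome, so that it carries the coding sequence without introns. Such copies are often shared by only some strains of a species, and their sequence can stay so close to the source gene that short reads fit both. RPS26 and RPL14 are proteins of the small and the large subunit of the cytosolic ribosome, tropomyosin 3 (Tpm3) winds along actin filaments, FABP5 binds fatty acids in the cytosol, and SARNP takes part in export of messenger RNA from the nucleus.

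In the GENCODE M21 annotation of GRCm38, Rps26-ps1 is a transcribed processed pseudogene on chromosome 8, and Gm6563, Rpl14-ps1 and Gm6166 are processed pseudogenes on chromosomes 19, 7 and 9. Tpm3-rs7 on chromosome 14 and Gm14296 on chromosome 2 are annotated as protein coding, as is Rps26 on chromosome 10. The best match of each annotated transcript among the transcripts of other genes named its source. Rps26-ps1 was 99.07% identical to Rps26, with 4 mismatches in 429 aligned columns. Gm6563 was 99.84% identical to Sarnp, with 1 mismatch in 633. Rpl14-ps1 was 98.93% identical to Rpl14, Tpm3-rs7 99.1% to Tpm3, and Gm6166 98.29% to Fabp5. The transcript of Gm14296 used here, 3823 bases, was matched in full by 2210418O10Rik, a gene 652.2 kb away on chromosome 2. Sarnp, Fabp5 and 2210418O10Rik are not named by the symbols of their copies and were identified from these matches after levels had been seen. Of all stretches of 100 bases in a copy, 40% in Rps26-ps1, 81.3% in Gm6563, 60.6% in Rpl14-ps1, 49.8% in Tpm3-rs7 and 25.8% in Gm6166 occur unchanged in the source transcript.

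The following windows of 60 coding bases show how little separates each copy from its source. They are from GENCODE M21 transcripts on GRCm38, 5′ to 3′ in the sense of the gene, and capitals mark the bases that differ within a pair. The Rps26, Sarnp and Fabp5 windows cross an intron in the genome, so their coordinates span more than the 60 bases shown.
Rps26-ps1, chr8:107439503-107439562, minus strand: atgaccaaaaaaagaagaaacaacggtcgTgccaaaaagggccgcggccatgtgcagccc
Rps26, chr10:128626184-128626478, minus strand: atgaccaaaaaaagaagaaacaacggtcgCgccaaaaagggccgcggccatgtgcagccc
Gm6563, chr19:23676105-23676164, plus strand: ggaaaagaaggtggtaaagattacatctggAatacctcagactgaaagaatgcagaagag
Sarnp, chr10:128846538-128848250, plus strand: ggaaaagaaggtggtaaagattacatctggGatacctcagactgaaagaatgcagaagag
Rpl14-ps1, chr7:45325501-45325560, plus strand: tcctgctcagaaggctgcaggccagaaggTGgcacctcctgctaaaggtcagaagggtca
Rpl14, chr9:120574280-120574339, plus strand: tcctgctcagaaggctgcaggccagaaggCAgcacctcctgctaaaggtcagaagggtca
Tpm3-rs7, chr14:113314744-113314803, plus strand: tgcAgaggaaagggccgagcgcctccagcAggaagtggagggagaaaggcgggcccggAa
Tpm3, chr3:90079800-90079859, plus strand: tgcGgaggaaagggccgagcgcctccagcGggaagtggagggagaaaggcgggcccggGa
Gm6166, chr9:57484301-57484360, plus strand: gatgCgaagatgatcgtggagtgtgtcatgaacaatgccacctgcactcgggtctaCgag
Fabp5, chr3:10015556-10016108, plus strand: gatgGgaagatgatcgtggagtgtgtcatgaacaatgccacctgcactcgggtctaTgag
A window differs at 1 base in the Rps26 and Sarnp pairs, at 2 in the Rpl14 and Fabp5 pairs and at 3 in the Tpm3 pair. A window does not hold every difference: over the whole match Tpm3-rs7 had 13 mismatches and Gm6166 had 5. Reads from stretches that are the same in copy and source can fit both loci. The values of copy and source are therefore uncertain wherever the counting could split such reads. How the authors' counting treated them is not given in the sources used here.

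All 7 genes passed the filter of at least 1 TPM in at least 4 libraries, as did 15608 genes in all. Whole reads could be recovered from the TPM steps for all 24227 genes above 0 TPM, 16277 of them at the GENCODE M21 length. Totals were 32388197 to 42047145 reads per library. All 10 hippocampal marker genes were at 1 TPM or more in every library. Markers of striatum were raised in replicate 1 of CAC at 2 wk, replicate 1 of CAC at 4 wk and replicate 2 of Con at 4 wk, thalamus markers in the first of these, and haemoglobin and other red cell genes in replicate 3 of CAC at 8 wk. Many of the group comparisons described below that include these libraries are also given without them.

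The TPM values described next are those that chose the genes, so they are given with no test. Ordered by log2(TPM + 0.5), the largest gap that left at least 3 libraries on each side was 6.18 for Rps26-ps1, 5.99 for Rps26, 5.39 for Tpm3-rs7, 5.08 for Gm6166, 4.65 for Gm6563, 4.65 for Rpl14-ps1 and 3.99 for Gm14296. The median gap of the 15608 tested genes was 0.0632, and 105 of them had a gap over 1. By gap the 7 genes ranked 1, 2, 4, 10, 11, 12 and 13, and the ranks between were held by predicted copies of Cwc22, a splicing factor gene. Just outside the set came Gm6356 at 3.94, next to Gm14296 at 3.99 just inside it. In reads, the highest low library and the lowest high library had 3 and 290 reads of Rps26, 4 and 374 of Rps26-ps1, 18 and 1145 of Tpm3-rs7, and 1 and 760 of Gm14296. Where a gene is listed at 0, counting error alone allows up to 3 reads.

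**Figure D1:**
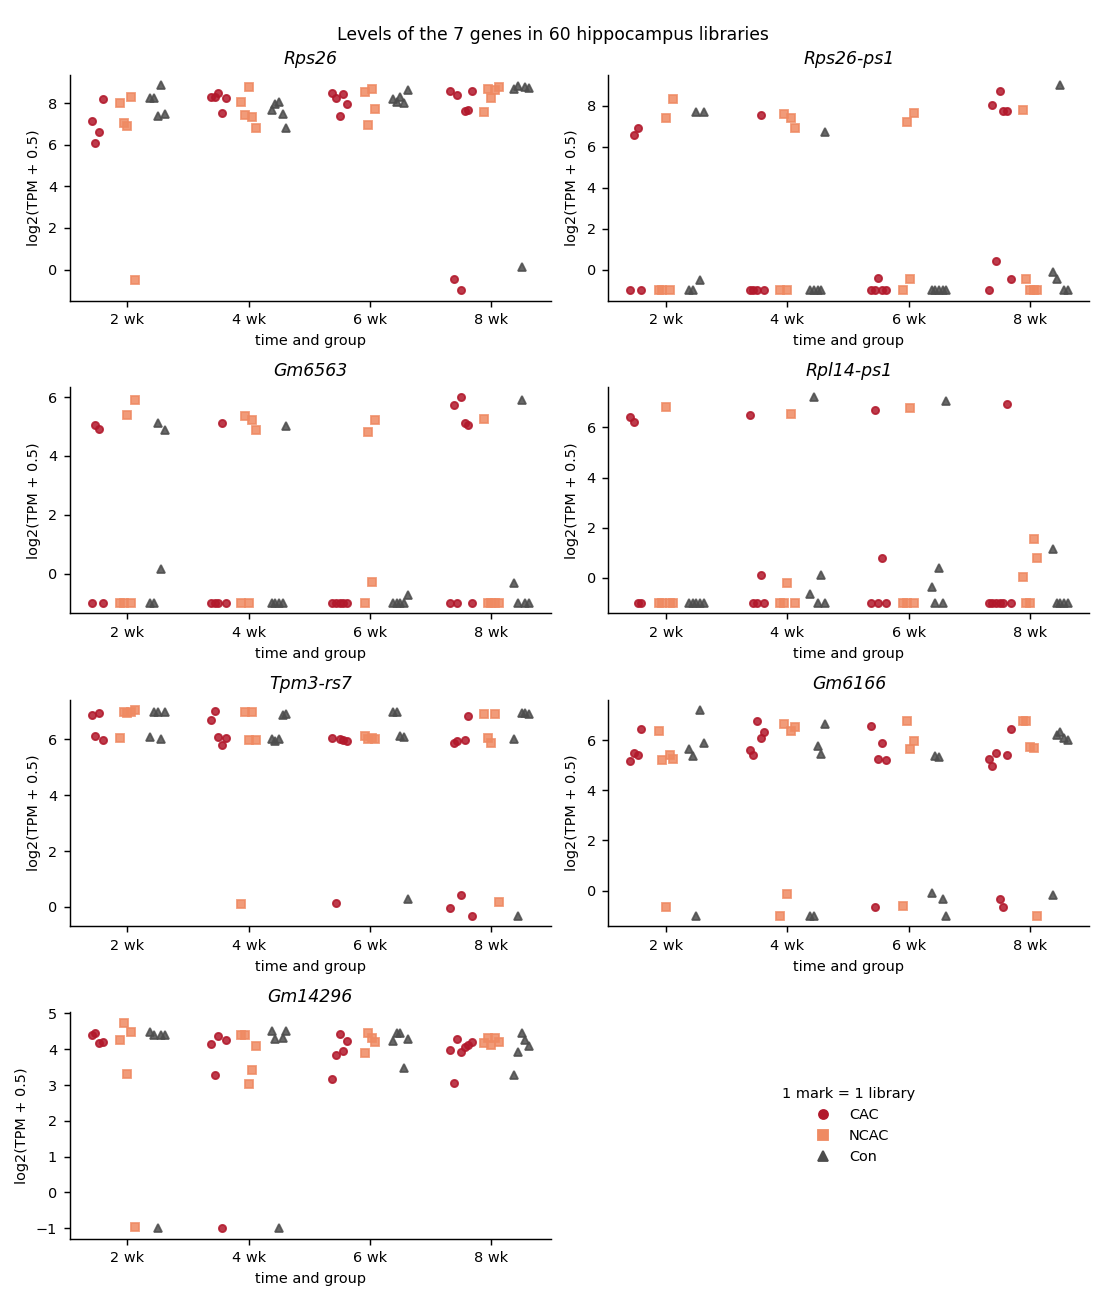
Level of each of the 7 genes as log2(TPM + 0.5), 1 mark per library, by time and group (CAC, NCAC and Con from left to right within each time). Low marks lie under 2.5 TPM and high marks over 7.5 TPM, and low and high libraries occur in all 3 groups for every gene.

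Rps26, a ribosomal protein gene that cells of all kinds use, had almost no reads assigned to it in 4 libraries. They are called the libraries without Rps26 below, by assigned reads alone. With the reads of Rps26-ps1 added, as TPM at the length of Rps26, they held 241 to 479 TPM. Rps26 itself had 0.228 and 0 TPM in replicates 2 and 4 of CAC at 8 wk, 0.215 TPM in replicate 5 of NCAC at 2 wk and 0.579 TPM in replicate 3 of Con at 8 wk. The other 56 libraries held 68.3 to 473 TPM, with a median of 296. At 8 wk Rps26 had 388.9, 0.228, 331.3, 0, 198.3, 204.9 and 390.6 TPM in CAC replicates 1 to 7, 189.1, 417.6, 301.5, 398.0 and 442.7 TPM in NCAC replicates 1 to 5, and 416.7, 453.2, 0.579, 433.4 and 420.2 TPM in Con replicates 1 to 5. So the CAC and Con groups each held libraries near 0 beside libraries near 400, and they overlapped with NCAC.

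Rps26-ps1 was high in exactly those 4 libraries and in 15 more. In the 4 libraries it had 262.9 and 416.9 TPM (CAC), 319.1 TPM (NCAC) and 521.8 TPM (Con), in the order given above. In the 15 it had 96.0 to 219 TPM, while Rps26 itself had 68.3 to 208 TPM there. The other 41 libraries had 0 to 0.834 TPM of Rps26-ps1, 33 of them listed at 0, beside 132 to 473 TPM of Rps26. Thus the libraries formed 3 bands rather than 2 levels when both genes are read together.

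Gm6563, the copy of Sarnp, followed Rps26-ps1 in all 60 libraries. It had 27.4 TPM or more in the same 19 libraries and at most 0.606 TPM in the same 41, although the 2 copies lie on chromosomes 19 and 8. It had 52.2 to 62.9 TPM in the 4 libraries without Rps26 and 27.4 to 41.1 TPM in the 15 intermediate ones. Sarnp ran the other way, with 19.1 to 22.6 TPM in the 4 libraries, 46.4 to 57.6 TPM in the 15 and 75.2 to 109 TPM in the 41. The source genes Rps26 and Sarnp are neighbours, 190.6 kb apart on chromosome 10.

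Tpm3-rs7 also fell into 3 bands: 0.307 to 0.84 TPM in 8 libraries, 55.5 to 69.3 TPM in 29 and 104 to 132 TPM in 23. Tpm3 mirrored these bands, with 63.7 to 91.8 TPM, 43.9 to 51.2 TPM and 19.7 to 27.5 TPM in the same libraries, so that its ranges in the 3 bands did not overlap. The 8 low libraries were replicate 2 of CAC at 6 wk, replicates 1, 4 and 7 of CAC at 8 wk, replicate 1 of NCAC at 4 wk, replicate 5 of NCAC at 8 wk, replicate 5 of Con at 6 wk and replicate 2 of Con at 8 wk.

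Gm6166, the copy of Fabp5, was at 0 to 0.436 TPM in 15 libraries and at 31.2 to 146 TPM in 45. Fabp5 had 60.7 to 88.3 TPM in the 15 libraries and 25.0 to 65.4 TPM in the others. Rpl14-ps1 was the reverse case, with 73.7 to 146 TPM in 10 libraries and at most 2.46 TPM in 50. Rpl14 had 327 to 511 TPM in the 10 libraries and 346 to 612 TPM in the 50, ranges that overlap over most of their length. All 3 libraries with raised striatal markers were among the 10, and the other 7 had no raised marker list; the part of the tissue makeup in the level of Rpl14-ps1 was not tested.

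Gm14296 was at 0 to 0.00975 TPM in replicate 4 of CAC at 4 wk, replicate 5 of NCAC at 2 wk, replicate 3 of Con at 2 wk and replicate 3 of Con at 4 wk. A further 8 libraries held 7.59 to 10.6 TPM and 48 held 13.7 to 26.2 TPM. Its match 2210418O10Rik was listed at 0 in the same 4 libraries and had 3.10 to 14.4 TPM in the other 56, so both genes of this pair were at or near 0 in the same libraries. Only replicate 5 of NCAC at 2 wk was low for both Gm14296 and Rps26.

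**Figure D2:**
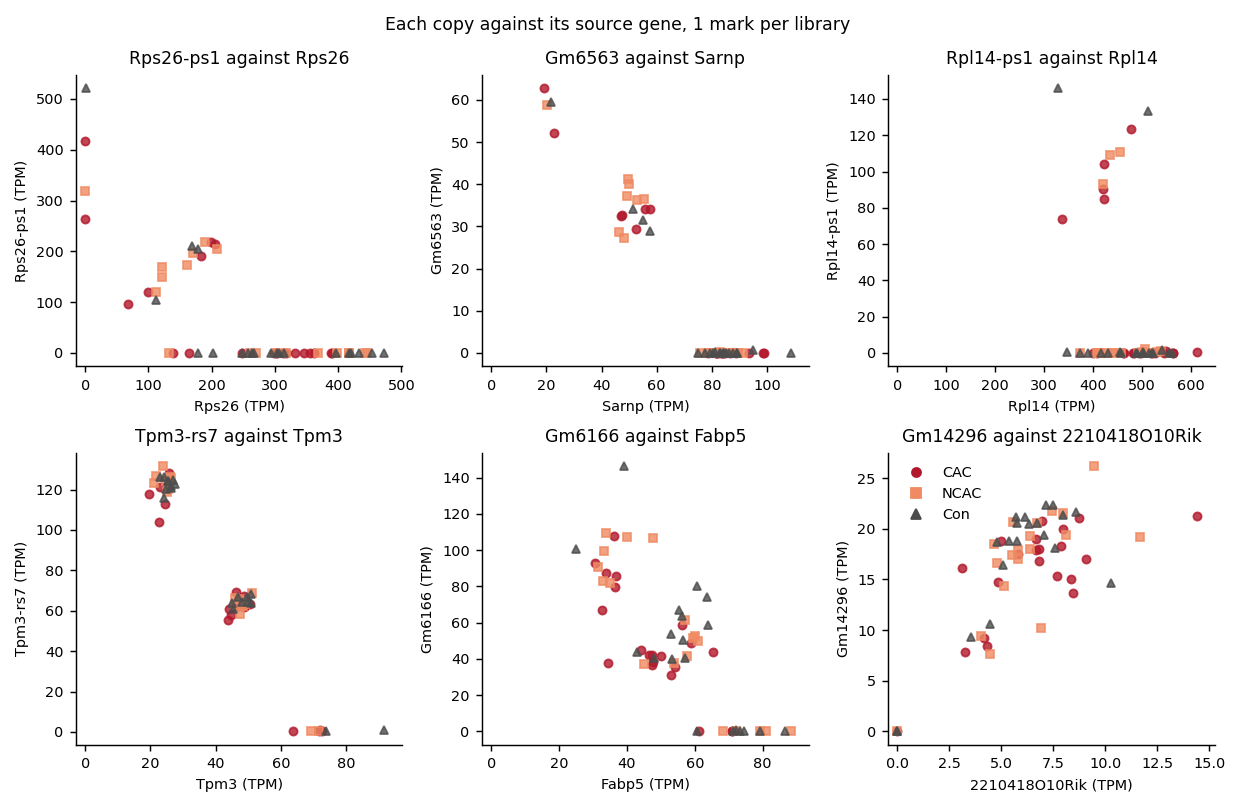
TPM of each copy (vertical axis) against TPM of its source gene (horizontal axis), 1 mark per library of the CAC, NCAC and Con groups. Rps26, Sarnp and Tpm3 drop as their copies climb through 3 bands, the 10 libraries high in Rpl14-ps1 overlap the others in Rpl14, and in 4 libraries 2210418O10Rik is at 0 and Gm14296 at 0.00975 TPM or less.

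The share of the reads of copy plus source that was assigned to the copy separated the libraries cleanly. Bands were split at gaps over 5 percentage points with at least 3 libraries in each. Rps26-ps1 took 0 to 0.23% of the reads of its pair in 41 libraries, 46.2 to 56.3% in 15 and 99.9 to 100% in 4. Gm6563 took 0 to 0.519%, 29.2 to 40.4% and 65.4 to 73% in the same 41, 15 and 4 libraries. Tpm3-rs7 took 0.144 to 0.401% in 8, 29.9 to 34.1% in 29 and 60.7 to 67.5% in 23. Gm6166 took 0 to 0.113% in 15, 9.95 to 19.9% in 30 and 27.7 to 43% in 15. Rpl14-ps1 took 0 to 0.368% in 50 and 13.3 to 25.3% in 10. The 25.3% was that of replicate 2 of Con at 4 wk alone, and the next highest share was 16.55%, in replicate 5 of Con at 6 wk. That gap is also over 5 percentage points, but fewer than 3 libraries lie above it, so it did not split a band. Gm14296 took 78.2 to 92.9% of the reads it shares with 2210418O10Rik in the 56 libraries where it was high, and had the 1 read of the pair in replicate 5 of NCAC at 2 wk.

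**Figure D3:**
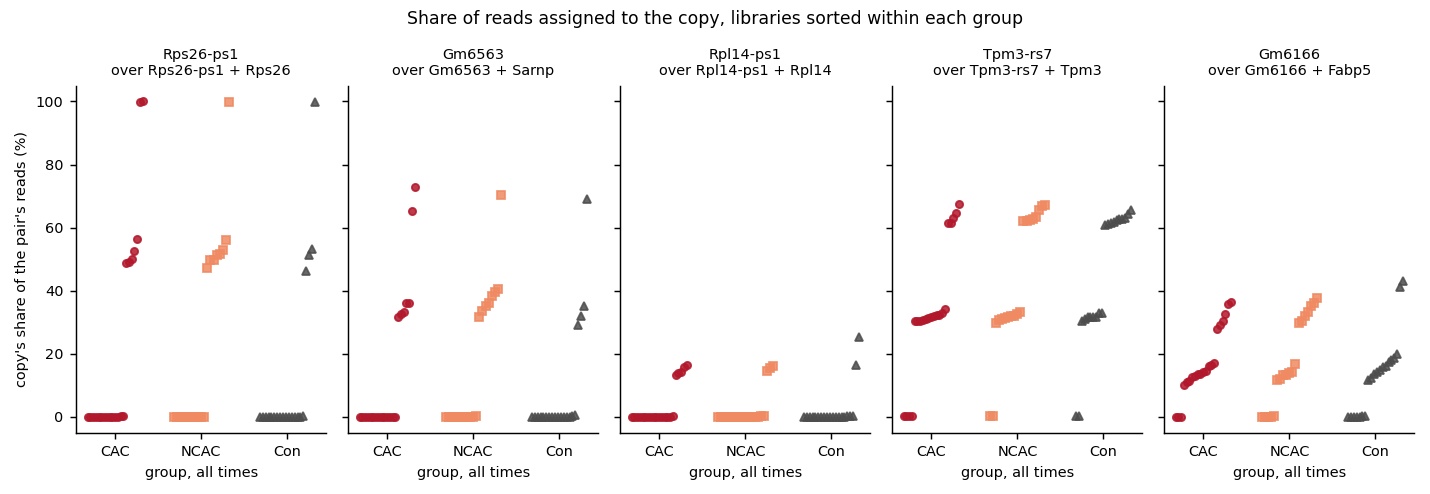
Percentage of the reads of a copy and its source gene that was assigned to the copy, with libraries sorted within CAC (n = 21), NCAC (n = 19) and Con (n = 20) over all times. Empty ranges separate the bands in all 5 pairs, and each band of Rps26-ps1, Gm6563, Tpm3-rs7, Gm6166 and Rpl14-ps1 holds libraries of all 3 groups.

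The bands cut across the 12 groups. Both levels occurred within a group in 10 of 12 groups for Rps26-ps1, Gm6563 and Gm6166, in 9 for Rpl14-ps1, in 6 for Tpm3-rs7, in 4 for Gm14296 and in 3 for Rps26. High libraries of Rps26-ps1 numbered 7 of 21 in CAC, 8 of 19 in NCAC and 4 of 20 in Con. High libraries of Rpl14-ps1 numbered 5, 3 and 2 in CAC, NCAC and Con. Low libraries of Gm6166 numbered 3 of 21 in CAC, 5 of 19 in NCAC and 7 of 20 in Con, and low libraries of Tpm3-rs7 numbered 4, 2 and 2.

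Apart from Rps26-ps1 and Gm6563, no 2 of the 7 genes split the libraries identically. Of the 19 libraries high in Rps26-ps1, 4 were also high in Rpl14-ps1 and 15 in Gm6166, and of the other 41, 6 were high in Rpl14-ps1 and 30 in Gm6166. Tpm3-rs7 and Gm6166 were both low in 5 libraries, out of 8 and 15 low ones. Cwc22, with 251 to 629 TPM in 13 libraries and 11.3 to 18.8 TPM in 47, was low in all 4 libraries without Rps26 and in 41 of the 50 low in Rpl14-ps1. It was high in 12 of the 45 libraries high in Gm6166 and in 1 of the 15 low ones.

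For each of the 7 genes, the 3 other tested genes whose own largest-gap split was most alike were found by the absolute phi coefficient over the 60 libraries, a measure that is 1 when every library falls on the same side. Rab5b, a small GTPase of early endosomes, and Sarnp split the libraries exactly as Rps26 did. Rab5b had 151 and 149 TPM in the CAC libraries without Rps26, 155 TPM in the NCAC library and 140 TPM in the Con library, against 162 to 221 TPM in the other 56. These 4 were its 4 lowest values, yet its gap was only 0.07 on the log2 scale. Rab5b lies 50.4 kb from Rps26. The third, Tmem198b, 173.3 kb from Rps26, went the opposite way in 57 of 60 libraries (phi -0.64).

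For Rps26-ps1 and for Gm6563 the most alike gene was the other, and the next were again on chromosome 10 and not near either copy. Vmn2r84, a vomeronasal receptor gene 1751.2 kb from Rps26, was on the same side in 59 of 60 libraries (phi 0.96). Its values were near the floor, with a gap of 0.26 on the log2 scale. It reached 1 TPM only in libraries high in Rps26-ps1, so it passed the filter through these alone. It had 0.371 to 1.79 TPM in 18 of the 19 libraries high in Rps26-ps1, 0.0613 TPM in the remaining one, replicate 5 of Con at 2 wk, and at most 0.229 TPM in the other 41. Pmel, a melanosome protein gene 77.4 kb from Rps26, was on the same side in 52 libraries (phi 0.69), with 0.397 to 2.17 TPM in the 19 libraries and 0.215 to 1.16 TPM in the 41.

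For Rpl14-ps1, on chromosome 7, the most alike gene was Rpsa, a ribosomal protein gene 439.1 kb from Rpl14 on chromosome 9, which was on the opposite side in 59 of 60 libraries (phi -0.94). Rpsa had 351 to 518 TPM in 9 of the 10 libraries high in Rpl14-ps1, 637 TPM in replicate 5 of Con at 6 wk, and 552 to 715 TPM in the other 50. For Tpm3-rs7 the most alike were Gm43713 (phi 0.69) and 1500004A13Rik (phi -0.68), 1172.6 and 1240.1 kb from Tpm3 on chromosome 3. The third, Gm2237 (phi 0.60), is on chromosome 14 with Tpm3-rs7, but 93729.5 kb away. For Gm6166 none was close to that pair: Ifi27l2a (phi -0.57), Nr2c2ap (phi -0.57) and Mrpl47 (phi 0.51), whose gaps were 0.34, 0.03 and 0.03. For Gm14296, 16 genes had the identical split, 12 of them with a position, and all 12 lie on chromosome 2 between 175129493 and 177142331 on GRCm38. They include 2210418O10Rik, Gm14288 and Gm14295, and 9 of the 12 had a gap over 1.

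Neighbouring genes were then counted for the locus of each gene and of its source, within 500 kb and with a phi of at least 0.5 in either direction. Around Rps26, 4 of 39 tested neighbours had such a split, namely Dgka, Rab5b, Sarnp and Tmem198b, against 0.0769% of all tested genes. Around the chromosome 8 locus of Rps26-ps1 it was 0 of 12, and around the chromosome 19 locus of Gm6563 0 of 7. Pmel alone qualified near their sources, as 1 of 39 and 1 of 32 neighbours, against 0.0192% of all tested genes. Around Rpl14-ps1 it was 1 of 54, Sphk2, and around Rpl14 2 of 9, Rpsa and Eif1b, against 1.69% of all tested genes. No tested gene lay within 500 kb of Tpm3-rs7, and 1 of 26 near Tpm3 qualified, Npr1, against 0.135% of all tested genes. Around Gm6166 and Fabp5 it was 0 of 24 and 0 of 4, against 0.0192% of all tested genes. Around Gm14296 it was 7 of 12 neighbours, and around 2210418O10Rik 6 of 9, against 0.237% of all tested genes. The counts are a description, since the splits were taken from the same 60 libraries.

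**Figure D4:**
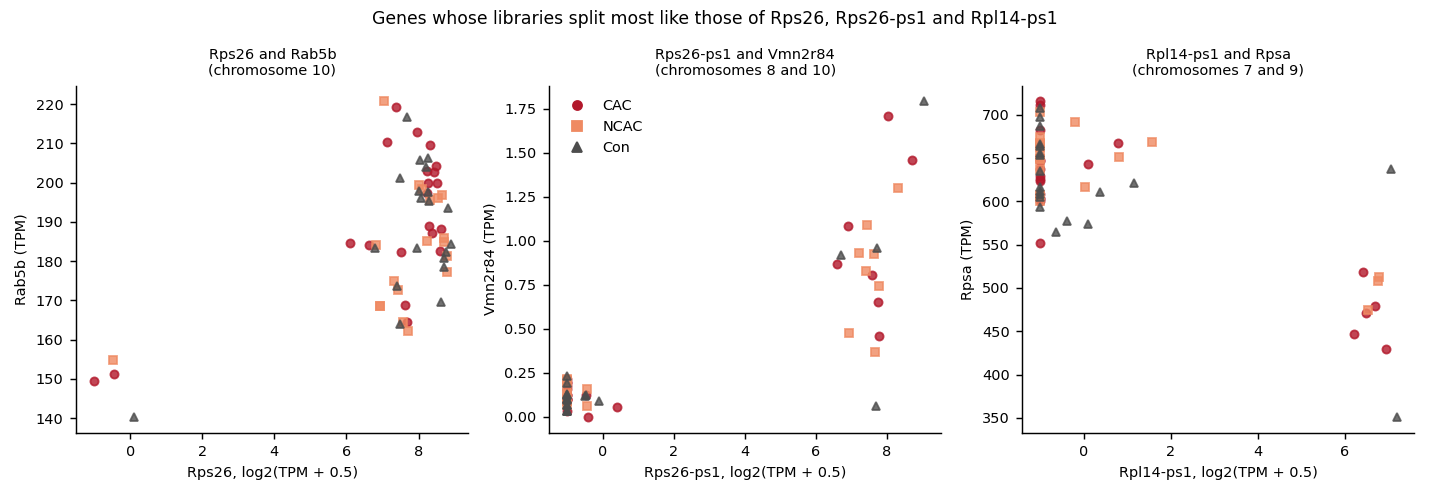
TPM of Rab5b, Vmn2r84 and Rpsa (vertical axes) against log2(TPM + 0.5) of Rps26, Rps26-ps1 and Rpl14-ps1 (horizontal axes), 1 mark per library of the CAC, NCAC and Con groups. The 4 libraries without Rps26 have the lowest Rab5b values, and 1 library each departs from the pattern for Vmn2r84 and for Rpsa.

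The groups were compared with limma on log2(TPM + 0.5) over all 60 libraries, with Benjamini-Hochberg adjustment over 15608 genes and a threshold of 0.05. The 7 genes were chosen on the same TPM values, including their spread over the 12 groups, so their place in this fit is a description from which nothing is read. They were past the threshold in 0 of 126 fits over 18 comparisons. For CAC against Con, 3.70%, 0.801%, 0.250% and 14.5% of all tested genes were called at 2, 4, 6 and 8 wk. For CAC against NCAC it was 0%, 0.0128%, 1.77% and 1.83%. Over all times 19.8% were called for CAC against Con and 15.7% for CAC against NCAC. The change of a difference between 2 and 8 wk was called for 0.00641% of genes for CAC against Con and 0.237% for CAC against NCAC. NCAC against Con gave 0% throughout. At an unadjusted p under 0.05, 1 of the 126 fits of these genes lay with limma, 3 of 126 with limma voom on recovered reads, 7 of 84 with limma on the compared groups alone, and 3 of 84 with a two-sided exact permutation test, which covered the comparisons at 1 time. Without replicate 1 of NCAC at 6 wk it was 5 of 28 with limma. The unadjusted shares of all tested genes are not given here for voom, for the compared groups alone or for that left-out library. Those counts therefore stand without a background and cannot be placed against all genes. Of all tested genes, 22.8%, 17.9%, 12.1% and 31.3% were under that unadjusted limma threshold for CAC against Con at 2, 4, 6 and 8 wk, 6.94%, 14.0%, 18.9% and 15.5% for CAC against NCAC, and 9.72%, 9.85%, 3.76% and 7.85% for NCAC against Con. Over all times it was 34.4%, 30.4% and 2.43% for these 3 contrasts. Under 0.05 in the exact test were 15.4% of all tested genes for CAC against NCAC and 5.22% for NCAC against Con at 6 wk, where the 3 results of these genes lay (Gm6563 in both contrasts and Rps26-ps1 in the second). After adjustment 0 of the 7 were past the threshold with voom or the exact test. The exact test called 0 of all tested genes in 11 of its 12 comparisons and 5.25% for CAC against Con at 8 wk, so it had little room to call any gene, while voom called up to 16.7%, for CAC against Con over all times.

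The choice of the genes also fixes a wide spread within groups. The residual standard deviation (SD) on the log2 scale was 3.97 for Rps26-ps1, the highest of 15608 genes, 3.02 for Rpl14-ps1, 3.00 for Gm6166, 2.90 for Gm6563, 2.23 for Rps26, 2.21 for Tpm3-rs7 and 1.41 for Gm14296, against a median of 0.153 over all tested genes. Rps26 was at -2.75 ± 1.26 (SE) for CAC against NCAC at 8 wk. There 2 of the 7 CAC libraries and 0 of the 5 NCAC libraries were on the low level. The difference was -1.74 without replicate 2 and -1.65 without replicate 4 of CAC, but -3.25 without replicate 1 or 7. Without replicate 3 of CAC, which has raised red cell markers, it was -3.21. Rps26-ps1 was at 4.36 for NCAC against Con at 6 wk, where 2 of 4 NCAC libraries and 0 of 5 Con libraries were high. It was at 3.07 without replicate 2 and 2.92 without replicate 4 of NCAC, but at 5.82 without replicate 1 and 5.63 without replicate 3. Rpl14-ps1 was at 3.66 for CAC against Con at 2 wk, with 2 of 4 CAC libraries and 0 of 5 Con libraries high. It was at 2.40 without replicate 1 of CAC, which has raised striatal and thalamic markers, and at 2.47 without replicate 2. Without replicate 4 or 5 of CAC it was at 4.88.

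Adding the reads of copy and source, as TPM at the length of the source gene, removed most of this spread. The alternative was chosen after seeing the data. The residual SD fell to 0.319 for Rps26 with Rps26-ps1, to 0.129 for Sarnp with Gm6563, to 0.0845 for Tpm3 with Tpm3-rs7 and to 0.232 for Fabp5 with Gm6166. The share of tested genes with a lower SD was 84.3% for the Rps26 sum, 38.2% for the Sarnp sum, 7.38% for the Tpm3 sum and 71.7% for the Fabp5 sum. The source genes alone had 2.23 (Rps26), 0.556 (Sarnp), 0.557 (Tpm3) and 0.430 (Fabp5). The sum of the Tpm3 pair ran from 58.6 to 92.05 TPM and that of the Sarnp pair from 65.3 to 109 TPM over all 60 libraries. Rpl14 with Rpl14-ps1 kept 0.144, close to the 0.14 of Rpl14 alone. The sum of Gm14296 and 2210418O10Rik had 1.78, above the 1.41 of Gm14296 alone and the 1.058 of 2210418O10Rik alone, and 99.9% of tested genes had a lower SD.

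Of the fits of the 6 summed pairs, 2 were called in the 12 comparisons at 1 time. In the 6 comparisons over times 1 was called. These calls were for CAC against Con at 2 wk, at 4 wk and over all times. Of all genes 3.73%, 0.801% and 19.8% were called there. Rps26 with Rps26-ps1 was lower in CAC than in Con at 2 wk, with 139.4, 156.4, 209.1 and 298.7 TPM in CAC replicates 1, 2, 4 and 5, against 306.0, 303.7, 362.1, 473.6 and 366.2 TPM in Con replicates 1 to 5. All 4 CAC values were below all 5 Con values, and 7.11% of all tested genes had groups that did not overlap in this comparison. The mean was 201 ± 71.7 TPM in CAC (SD, n = 4) and 362 ± 68.9 TPM in Con (SD, n = 5). The log2 difference was -0.89 ± 0.21 (SE; adjusted p = 0.0223 with limma), where 3.73% of the 15602 genes of the summed table were called. In bulk tissue, fewer cells that express a gene and less RNA per cell cannot be told apart. The two-sided exact permutation test gave p = 0.00794, the smallest that 4 against 5 libraries can give, and 18.5% of all tested genes were under 0.05 in it. The call ended without replicate 1 of CAC, which has raised striatal and thalamic markers (-0.74, adjusted p = 0.122 with limma), without replicate 2 of CAC (0.101), without replicate 4 (0.134) or 5 (0.0607) of Con, and when only the compared groups were fitted (0.160). Without the libraries with raised striatal or red cell markers it was -0.74 (adjusted p = 0.109 with limma).

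Of 78 genes for cytosolic ribosomal proteins other than Rps26, 26 fell and 0 rose in CAC against Con at 2 wk, with a median log2 difference of -0.34 against 0.06 over all genes. Without the libraries with raised striatal or red cell markers 0 of the 78 fell and 0 rose with limma, with a median of -0.36, and 0.0448% of all genes were called, against 3.70% with them. Rpl14 alone was among the 26 (-0.34 ± 0.09, SE; adjusted p = 0.0319 with limma), a call that ended without replicate 1 or 2 of CAC or replicate 4 or 5 of Con, with adjusted p up to 0.187, and when only the compared groups were fitted (0.161). With Rpl14-ps1 added it was not called, at -0.24 ± 0.10 (SE; adjusted p = 0.126 with limma). Rpl14-ps1 took 13.25 and 14.29% of the pair's reads in replicates 1 and 2 of CAC, and 0% in every Con library at 2 wk. In the comparison with all libraries, of 7 tested ribosomal protein pseudogenes 1 fell and 0 rose. At 4 wk the direction was the opposite: 10 of the 78 rose and 0 fell, with a median of 0.38, where 0.801% of all tested genes were called. Without the marker-rich libraries 8 rose and 0 fell at 4 wk, where 0.923% of genes were called. Rpl14 with Rpl14-ps1 then had 489.3, 544.0, 527.4, 612.2 and 482.8 TPM in CAC and 373.9, 438.4, 416.8, 346.1 and 390.5 TPM in Con, which did not overlap, as for 3.77% of tested genes. Its log2 difference was 0.43 ± 0.09 (SE; adjusted p = 0.0244 with limma), where 0.801% of genes were called, and that of Rpl14 alone was 0.47 ± 0.09 (SE; adjusted p = 0.0109 with limma), which lost its call without replicate 2 or 4 of CAC or replicate 4 of Con. Without the marker-rich libraries the sum was at 0.50 (adjusted p = 0.0158 with limma). The call for the sum ended without replicate 2 or 4 of CAC or replicate 1, 4 or 5 of Con, with adjusted p up to 0.125 with limma. Rps26 with its copy was at 0.60 ± 0.19 (SE; adjusted p = 0.0969 with limma, but 0.0414 when only the compared groups were fitted), with 303.5 to 357.5 TPM in CAC and 177.6 to 263.5 TPM in Con. At 8 wk 7 of the 78 rose and 2 fell, where 14.5% of all tested genes were called, so the list's share was not above that of all genes. Without the marker-rich libraries 8 of the 78 rose and 3 fell at 8 wk, where 21.4% of genes were called. Rps26 with its copy was at -0.30 ± 0.18 (SE; adjusted p = 0.255 with limma), with 241.4 to 402.5 TPM in CAC and 417.1 to 479.2 TPM in Con, which did not overlap, as for 7.02% of tested genes. NCAC moved against Con in the same direction as CAC at 2 and 4 wk. The median of the 78 was then -0.22 and 0.30, and the Rps26 sum was at -0.54 and 0.52. The Rpl14 sum was at -0.17 and 0.24. For CAC against NCAC at 2 and 4 wk the medians were -0.13 and 0.07. The Rps26 sum was at -0.35 and 0.07, and the Rpl14 sum at -0.07 and 0.19. In both contrasts 0 of the 78 and neither sum passed the threshold, beside 0% to 0.0128% of all genes.

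Fabp5 with Gm6166 was lower in CAC than in Con over the 4 times together. The group means were 55.95 ± 4.11, 55.3 ± 8.39, 56.4 ± 12.5 and 60.6 ± 8.79 TPM in CAC at 2, 4, 6 and 8 wk (SD, n = 4, 5, 5 and 7), and 71.75 ± 9.27, 58.4 ± 11.4, 67.9 ± 9.58 and 72.7 ± 4.44 TPM in Con (SD, n = 5 each). CAC was below Con at each of the 4 times, and the groups overlapped at 4, 6 and 8 wk. The log2 difference over all times was -0.24 ± 0.07 (SE; adjusted p = 0.0124 with limma), where 19.8% of genes were called. It stayed past the threshold without any single library of the 41 in the comparison, at -0.27 to -0.22, and without the libraries with raised striatal or red cell markers (-0.28). Fabp5 alone was at -0.32 ± 0.13 (SE; adjusted p = 0.0765 with limma) and Gm6166 alone at 1.34. CAC against NCAC over all times gave -0.17 ± 0.07 (SE; adjusted p = 0.0895 with limma).

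The level of the copy moved with that sum. The sum was 60.7 to 88.3 TPM in the 15 libraries with almost no Gm6166 reads, 41.6 to 77.5 TPM in the 30 intermediate ones and 43.8 to 67.6 TPM in the 15 with the largest share. CAC had 3, 12 and 6 libraries in these bands, and Con had 7, 11 and 2. With the band as a term in the fit, an alternative added after seeing the data, the difference was -0.14 ± 0.05 (SE; adjusted p = 0.0410 with limma), still past the threshold but smaller by over 1.5 times. The same term left Rps26 with its copy at -0.89 and Rpl14 with its copy at 0.43.

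**Figure D5:**
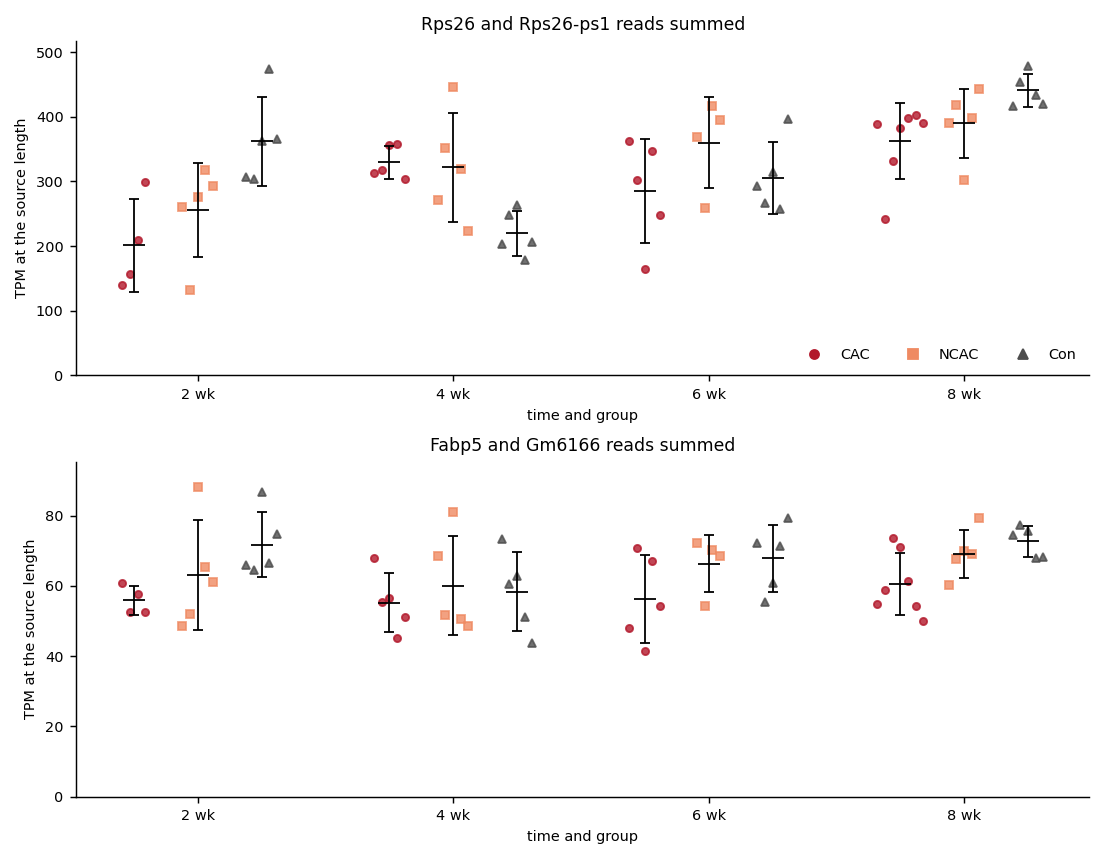
Reads of Rps26 with Rps26-ps1 (top) and of Fabp5 with Gm6166 (bottom), as TPM at the length of the source gene, 1 mark per library by time, with CAC, NCAC and Con from left to right and black bars for mean and SD. In the upper panel CAC lies below Con at 2 wk and above it at 4 wk without overlap, and in the lower panel the CAC mean is below the Con mean at every time.

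Tpm3 with Tpm3-rs7, the pair with the least spread, was not called for CAC against Con over all times, at -0.06 ± 0.03 (SE; adjusted p = 0.139 with limma). With median-of-ratios scaling it was (-0.09, adjusted p = 0.0175 with limma). Without the libraries with raised striatal or red cell markers the Tpm3 sum was at -0.03 (adjusted p = 0.405 with limma). Of the 4 tropomyosin genes Tpm1, Tpm2, Tpm3 and Tpm4, 0 rose and 0 fell in any comparison. The Sarnp pair was at -0.02 ± 0.04 (SE; adjusted p = 0.779 with limma) for CAC against Con over all times.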

How the data were processed

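Hippocampal RNA was extracted with Trizol, libraries were made with a TruSeq stranded mRNA kit and sequenced on a NovaSeq instrument, per the labels' protocols. The authors deposited 1 table of TPM values per gene symbol and library. The genome build was mm10, per the submitters' processing notes, while no aligner, counter, annotation or strand setting is named there or in the labels. From the TPM steps, whole read counts were recovered by own computation, within 0.02 reads, for 24227 of 24227 genes above 0 TPM. The GENCODE M21 length served for 16277, and the others took the first length that fitted, which genes with few values above 0 meet easily. Lengths so recovered for Rps26-ps1, Gm6563, Rpl14-ps1, Tpm3-rs7 and Gm6166 were 410, 869, 710, 2106 and 669 bases. Their transcripts used for the matches had 449, 633, 653, 2147 and 409 bases. These recovered counts served for reads per copy, summed pairs and limma voom.

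The main test was limma 3.58.1 (R 4.3.3) on log2(TPM + 0.5), with all 12 groups in 1 fit and genes of at least 1 TPM in at least 4 libraries. Fold changes on this scale understate the change of low genes. Exact permutation tests covered comparisons at 1 time. Copies were matched to sources with blastn 2.17.0 on GENCODE M21 transcripts. Tables were handled in Python 3.11.15, and the limma fit was tested on simulated data. No 2 libraries held identical values. Totals of 32388197 to 42047145 reads set the counting error, and floors of 3 reads cover that error only. The labels do not say that each library is a separate mouse, so p-values speak of the variation among libraries, part of which may be technical.

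The named genes are the 7 genes, the sources their symbols name, Cwc22, and the 3 tested genes whose split was most alike. Sarnp, Fabp5, 2210418O10Rik and the neighbours were named after their values or matches were seen. Members and lists were chosen with earlier results of these data known. Alternatives were another pseudocount, no filter, median-of-ratios scaling, voom, fits of the compared groups alone, a replicate block and leaving out each library. Summed pairs, leaving out libraries rich in striatal or red cell markers, and the level of the copy as a term were added after seeing the data.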

Additional observations from a re-analysis of the deposited data

Results flagged for a closer look

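Over the 7 genes and 5 summed pairs, 144 sets of 4 to 7 libraries were examined, and 43 had a highest or lowest library set far apart from the others by Dixon's criterion at 95%. Chance flags about 1 in 20 groups, which is 7.2 here. For genes with stepped levels, 1 library on the other level is enough to be set apart, and so is a small value in a group otherwise at 0. The 3 summed values listed last are neither.

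Rps26 had 183 TPM in replicate 4 of CAC at 4 wk (others 304 to 356), 0.215 TPM in replicate 5 of NCAC at 2 wk (others 121 to 318) and 0.579 TPM in replicate 3 of Con at 8 wk (others 417 to 453). Rps26-ps1 had 190.3 TPM in replicate 4 of CAC at 4 wk (others 0), 0.255 TPM in replicate 3 of CAC at 6 wk (others 0) and 219 TPM in replicate 1 of NCAC at 8 wk (others 0 to 0.231). Further libraries of Rps26-ps1 had 104 TPM in replicate 5 of Con at 4 wk (others 0) and 522 TPM in replicate 3 of Con at 8 wk (others 0 to 0.430). Gm6563 had 34.1 TPM in replicate 4 of CAC at 4 wk (others 0), 37.3 TPM in replicate 1 of NCAC at 8 wk (others 0) and 31.6 TPM in replicate 5 of Con at 4 wk (others 0). Further libraries of Gm6563 had 0.108 TPM in replicate 5 of Con at 6 wk (others 0) and 59.5 TPM in replicate 3 of Con at 8 wk (others 0 to 0.304). Rpl14-ps1 had 90.1 TPM in replicate 1 of CAC at 4 wk (others 0 to 0.575), 104 TPM in replicate 2 of CAC at 6 wk (others 0 to 1.24) and 123 TPM in replicate 6 of CAC at 8 wk (others 0). Further libraries of Rpl14-ps1 had 111 TPM in replicate 3 of NCAC at 2 wk (others 0), 93.2 TPM in replicate 4 of NCAC at 4 wk (others 0 to 0.379) and 109 TPM in replicate 3 of NCAC at 6 wk (others 0). Further libraries of Rpl14-ps1 had 146 TPM in replicate 2 of Con at 4 wk (others 0 to 0.571), 134 TPM in replicate 5 of Con at 6 wk (others 0 to 0.809) and 1.74 TPM in replicate 1 of Con at 8 wk (others 0). Tpm3-rs7 had 0.610 TPM in replicate 2 of CAC at 6 wk (others 61.6 to 66.3), 66.3 TPM in replicate 1 of NCAC at 2 wk (others 123 to 132) and 0.580 TPM in replicate 1 of NCAC at 4 wk (others 62.3 to 126). Further libraries of Tpm3-rs7 had 0.635 TPM in replicate 5 of NCAC at 8 wk (others 58.3 to 120.3), 0.714 TPM in replicate 5 of Con at 6 wk (others 66.9 to 126) and 0.308 TPM in replicate 2 of Con at 8 wk (others 63.9 to 123). Gm6166 had 0.137 TPM in replicate 2 of CAC at 6 wk (others 36.4 to 92.9), 0.134 TPM in replicate 3 of NCAC at 2 wk (others 36.9 to 82.8) and 0.148 TPM in replicate 1 of NCAC at 6 wk (others 49.8 to 109). Further libraries of Gm6166 had 0 TPM in replicate 5 of NCAC at 8 wk (others 51.3 to 107), 0 TPM in replicate 3 of Con at 2 wk (others 40.4 to 146) and 0.395 TPM in replicate 1 of Con at 8 wk (others 63.6 to 80.3). Gm14296 had 0 TPM in replicate 4 of CAC at 4 wk (others 9.18 to 19.98), 7.83 TPM in replicate 2 of CAC at 8 wk (others 14.8 to 18.9) and 0.00975 TPM in replicate 5 of NCAC at 2 wk (others 9.44 to 26.2). Further libraries of Gm14296 had 0 TPM in replicate 3 of Con at 2 wk (others 20.4 to 21.6), 0 TPM in replicate 3 of Con at 4 wk (others 18.8 to 22.4) and 10.6 TPM in replicate 4 of Con at 6 wk (others 18.1 to 21.4). Rps26 with its copy had 241 TPM in replicate 2 of CAC at 8 wk (others 332 to 402) and 132 TPM in replicate 2 of NCAC at 2 wk (others 260.0 to 318). Sarnp with its copy had 93.5 TPM in replicate 2 of CAC at 4 wk (others 81.4 to 83.7).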

How the results depend on the processing

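The count of low libraries kept its value in 35 of 35 alternative results and the linkage of genes in 6 of 6. The 7 genes, chosen on these values, were past the threshold in 0 of 3080 alternative fits, where the lowest adjusted p was 0.0740 with limma (Tpm3-rs7, CAC against Con at 8 wk without replicate 2 of Con). Summed pairs called at 1 time numbered 2, but 1 without the libraries rich in striatal or red cell markers, and 1 to 2 without single libraries. They numbered 3 when only the compared groups were fitted, where Rps26 with its copy at 4 wk was gained (0.60, adjusted p = 0.0414 with limma). Over all times 1 was called, but 2 with median-of-ratios scaling, with voom and without the marker-rich libraries, and 1 to 2 without single libraries. These counts of summed pairs are given without the share of all genes called under each alternative, and cannot be placed against it. Fitting only the compared groups gave -0.89 (adjusted p = 0.160) for Rps26 with its copy at 2 wk, -0.34 (adjusted p = 0.161) for Rpl14 alone at 2 wk and 0.47 (adjusted p = 0.0610) for Rpl14 alone at 4 wk, all CAC against Con with limma. Without the marker-rich libraries Rps26 with its copy at 2 wk gave -0.74 (adjusted p = 0.109) and Rpl14 alone at 2 wk -0.36 (adjusted p = 0.0949) with limma. Leaving out single libraries gave -1.11 to -0.74 for Rps26 with its copy at 2 wk, 0.38 to 0.47 for Rpl14 with its copy at 4 wk, -0.41 to -0.25 for Rpl14 alone at 2 wk and 0.41 to 0.55 for Rpl14 alone at 4 wk, and each of these calls ended without some of the libraries. The cause of these losses was not tested.

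The median correlation of deviations gave no sign that replicate numbers pair the samples: it was -0.00424 over 308 same-numbered pairs and -0.000315 over 1339 others. The correlations ran from -0.373 to 0.422 and from -0.497 to 0.495, so a pairing limited to some groups would not show in the medians. With the replicate block, 0 of the 7 genes were called, Fabp5 with its copy was at -0.22 (adjusted p = 0.0329 with limma) for CAC against Con over all times, Rps26 with its copy at -0.89 (0.0282) at 2 wk and Rpl14 with its copy at 0.43 (0.0230) at 4 wk.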
